A study of Mus musculus with 10 samples.

Results

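The unfolded protein response and the integrated stress response were examined through 32 genes in the visceral fat of mice with and without a pancreatic tumour. The members were chosen by name: every row of the 2 deposited expression tables whose gene symbol equals 1 of the 32 was taken. All 32 were found, among 16667 genes in the table of normalized counts and 29242 genes in the table of TPM, and all 32 were among the 14203 genes tested. The samples came from 10 wild type C57BL/6 mice aged 10 weeks, 5 that had sham surgery (sham) and 5 that carried an orthotopic KPC pancreatic tumor (KPC). KPC tumours come from a mouse model of pancreatic cancer, and an orthotopic tumour grows in the pancreas, its organ of origin, here in a wild type host. Both groups share the strain, the genotype and the age. The time from surgery to collection and the tumour sizes were not used here.

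Secreted and membrane proteins fold inside the endoplasmic reticulum (ER). When unfolded protein builds up there, 3 sensors in its membrane respond. IRE1 (Ern1) splices the messenger RNA of the transcription factor Xbp1, ATF6 is cut to release a transcription factor, and PERK (Eif2ak3) phosphorylates the translation factor eIF2 alpha. Phosphorylated eIF2 alpha lowers protein synthesis in general and favours translation of the transcription factor ATF4, and other kinases that sense amino acid shortage or viral RNA reach the same step, which is why that arm is called the integrated stress response. The targets are chaperones, disulfide isomerases, the machinery that removes misfolded protein, and enzymes of amino acid supply. Fat cells are secretory cells that release adiponectin in quantity, and ER stress in fat is best known from obesity.

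Levels below are in TPM, which is corrected for transcript length. Differences are KPC minus sham on the scale log2(normalized count + 1), where the value after ± is the standard error (SE) and the value after ± beside a TPM mean is the SD, n = 5 mice per group. Libraries summed to between 20941200 and 24449900 normalized counts. KPC mouse 1 stood apart from the other libraries: its median correlation with them was 0.908, where the others had medians of 0.939 to 0.959, and mitochondrially encoded genes took 15.7% of its TPM against 26.3% to 33.3% elsewhere. The plot of differences marks the value without this mouse for every member, and the text gives it for the members that lean on it most.

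None of the 32 genes was called different between KPC and sham mice. At an adjusted p under 0.05 by limma, 0 members were called, where 0.0563% of all tested genes were (0.0493% higher and 0.00704% lower in KPC mice), and the smallest adjusted p among the members was 0.298. At an unadjusted limma p under 0.05 there were 3 members, Sdf2l1 higher and Edem1 and Trib3 lower, where 13.5% of all tested genes passed that limit (7.61% higher and 5.91% lower). Sdf2l1 was the 1 member whose groups did not overlap, against 4.03% of all tested genes (2.75% higher and 1.28% lower). Neither count stands above its background. The median difference of the members was 0.06 on the log2 scale, or 0.03 without KPC mouse 1, and that of all tested genes was -0.02, and 19 of the 32 members had a difference above 0, against 46.9% of all tested genes. In whole tissue, fewer cells of a type and less RNA per cell cannot be told apart.

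The differences were bounded fairly closely. For 30 of the 32 members the 95% interval of the difference lay within 2-fold either way, a share that was 75.5% over all tested genes. For 22 it lay within 1.5-fold, against 51% of all tested genes. The exceptions at 2-fold were Sdf2l1, whose interval reached 2.03-fold higher, and Trib3, whose interval reached down to 0.496 of the sham level. SEs ran from 0.08 for Dnajc3 to 0.33 for Derl3, the member with the lowest level. These intervals hold for each gene singly and are not adjusted for the number of genes.

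**Figure D1:**
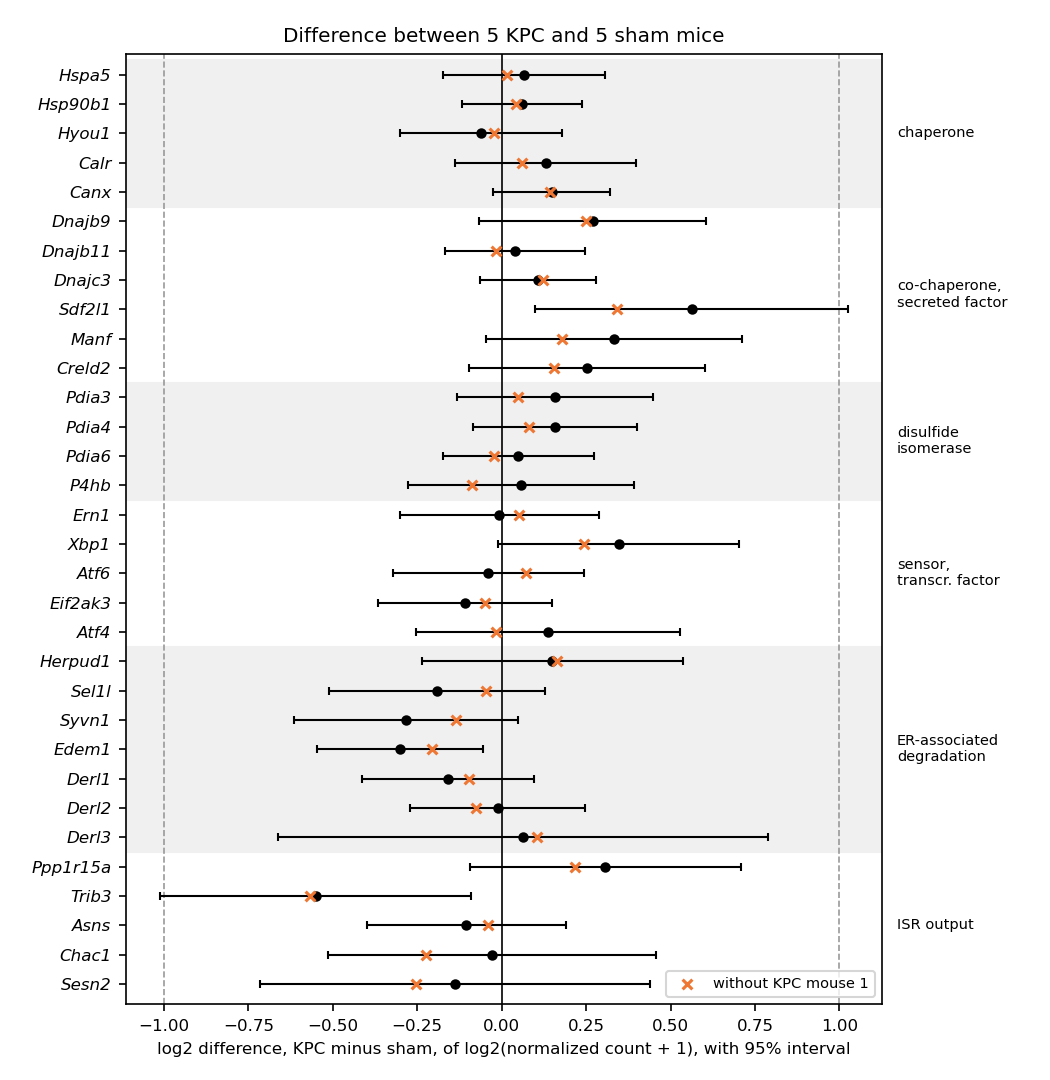
Difference between 5 KPC and 5 sham mice for each member, on the log2(normalized count + 1) scale (x axis), grouped by role; points are estimates, bars are 95% intervals from limma, crosses are the difference of group means without KPC mouse 1, and dashed lines mark a 2-fold change. Intervals of Sdf2l1, Edem1 and Trib3 leave out 0 before adjustment, and 30 of 32 intervals stay inside the dashed lines.

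The ER chaperones, of which all but Hyou1 were abundant, had differences between -0.06 and 0.15, with no adjusted p under 0.437. Hspa5, which encodes BiP, the Hsp70 chaperone that also holds the sensors inactive, stood at 206, 279, 249.6, 261 and 227 TPM in sham mice 1 to 5 and at 273, 264, 228, 246 and 236 TPM in KPC mice 1 to 5. In TPM the KPC values lay inside the sham range. Its level was 1.05-fold of sham with a 95% interval of 0.886 to 1.24, a log2 difference of 0.07 ± 0.11 (adjusted p = 0.823), or 0.016 without KPC mouse 1.

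The other chaperones showed the same overlap. Calr, calreticulin, a lectin chaperone that binds calcium, was the most abundant member at 353 ± 34.6 TPM in the sham group and 377 ± 35.6 TPM in the KPC group. Its highest value, 437 TPM, was that of KPC mouse 1, and the KPC mean without it was 362 TPM. Hsp90b1, the ER form of Hsp90, stood at 163 to 200.05 TPM in the sham group and 183 to 201 TPM in the KPC group. Canx, calnexin, the membrane-bound partner of calreticulin, stood at 98.9 ± 7.32 TPM in the sham group and 107 ± 3.85 TPM in the KPC group, with a log2 difference of 0.15 ± 0.08 (adjusted p = 0.437). Hyou1, a large Hsp70-like exchange factor for BiP, was the 1 chaperone with a difference below 0, at 26.4 ± 4.49 TPM in the sham group and 24.5 ± 2.26 TPM in the KPC group. Among these 5 genes the 95% intervals all lay within 1.5-fold.

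Several of these genes carry the same control sequence, which is shown here because it links members of different roles. The ER stress response element (ERSE) is the site through which cleaved ATF6 acts together with the factor NF-Y. It was searched as CCAAT and CCACG with 9 bases of any kind between them, on both strands, from 250 bases before to 50 bases after the RefSeq gene starts on GRCm38.p6. RefSeq promoters were matched for 28 members; Hyou1, Manf, Atf6 and Derl1 had none. The element was found for 9 of the 28 members (32.1%) and for 37 of 27025 genes overall (0.137%). The 9 are Hspa5, Hsp90b1, Calr, Canx, Creld2, Dnajc3, Pdia6, Syvn1 and Derl3, of which Hsp90b1 holds 2 copies. A match describes letters in this window and does not show binding in these mice. Stretches around the element follow, written 5′ to 3′ on the strand of the gene, with the element in capitals; where the capitals begin with CGTGG the element lies in reverse. For Hspa5, 65 bases before the RefSeq start, only the element is given, since an annotated exon overlaps the stretch that holds it.
Hspa5: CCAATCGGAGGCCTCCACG
Hsp90b1, distal: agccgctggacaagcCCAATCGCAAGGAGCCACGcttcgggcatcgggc
Hsp90b1, proximal: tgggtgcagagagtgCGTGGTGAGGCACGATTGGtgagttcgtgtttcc
Calr: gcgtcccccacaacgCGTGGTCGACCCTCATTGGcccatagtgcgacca
Canx: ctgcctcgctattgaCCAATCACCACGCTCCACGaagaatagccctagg
Creld2: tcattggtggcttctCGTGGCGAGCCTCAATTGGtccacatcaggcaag
Dnajc3: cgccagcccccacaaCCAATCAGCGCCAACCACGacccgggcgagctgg
Pdia6: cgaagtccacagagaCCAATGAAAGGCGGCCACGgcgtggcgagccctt
Syvn1: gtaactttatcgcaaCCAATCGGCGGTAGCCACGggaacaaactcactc
Derl3: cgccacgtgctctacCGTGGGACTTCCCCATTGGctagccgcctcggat

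On GRCm38.p6 the stretches lie at chr10:86705623-86705671 and chr10:86705518-86705566 (Hsp90b1, minus strand), chr8:84847060-84847108 (Calr, minus strand), chr11:50325785-50325833 (Canx, minus strand), chr15:88819505-88819553 (Creld2, plus strand), chr14:118937812-118937860 (Dnajc3, plus strand), chr12:17266476-17266524 (Pdia6, plus strand), chr19:6046517-6046565 (Syvn1, plus strand) and chr10:75893227-75893275 (Derl3, plus strand). The Hspa5 element lies on the plus strand of chromosome 2. The 9 bases between the boxes vary from gene to gene, and no site of another motif searched here overlaps the element. Members with the element had differences from -0.28 (Syvn1) to 0.25 (Creld2), a median of 0.07 and 8 of 9 above 0. The 19 members whose promoter lacks these letters had a median of 0.04 and 10 above 0. Outside the members, 10 genes with the element were tested when matched by symbol. Of these 10, 5 lay above 0, with a median of 0.02 and a smallest adjusted p of 0.476. Ero1b also holds the element but was measured under the symbol Ero1lb, so it is not among these 10. The difference of Ero1lb was 0.24 ± 0.16.

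**Figure D2:**
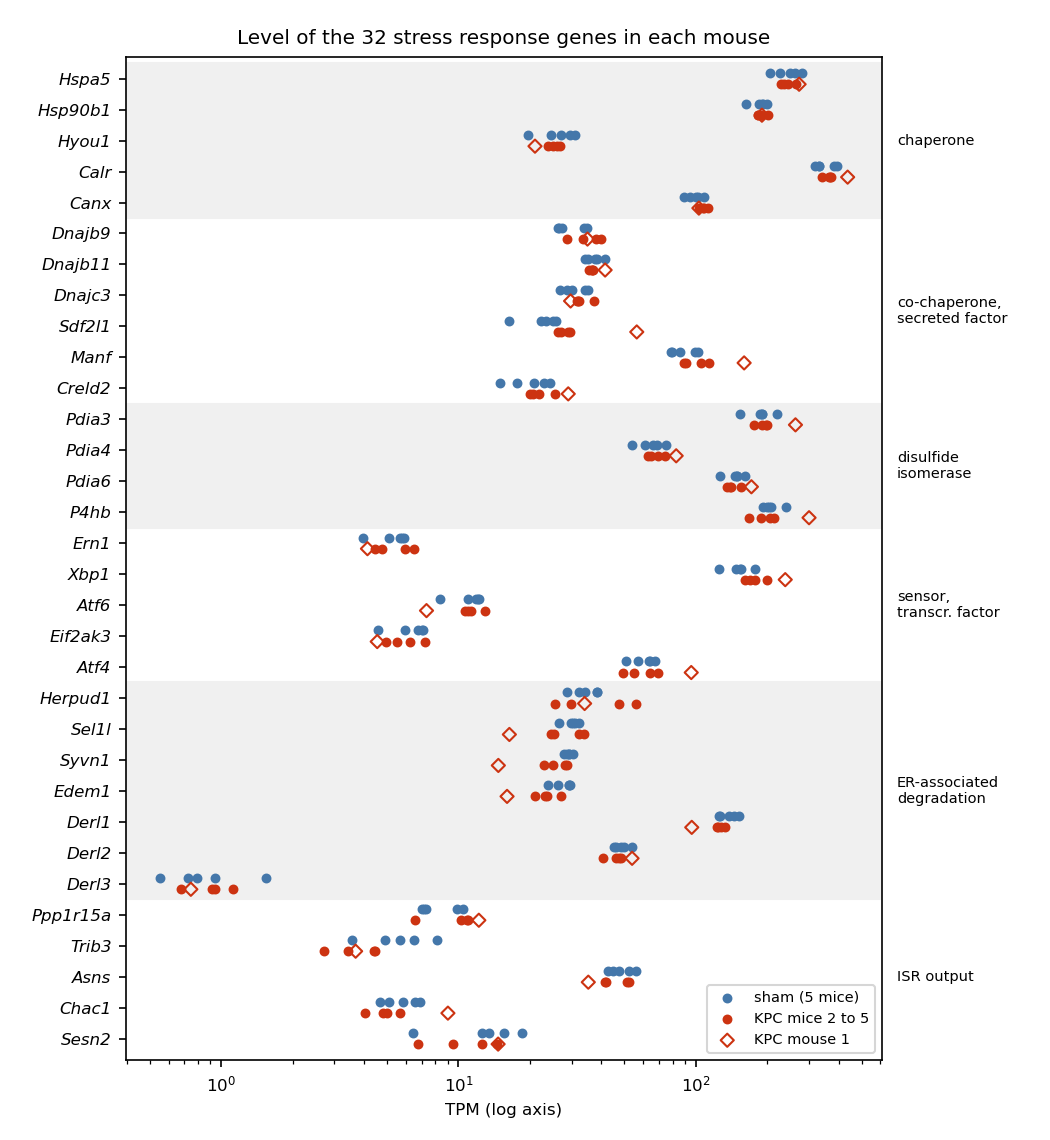
Level of each member in each mouse in TPM on a log axis, grouped by role; blue points are the 5 sham mice, red points are KPC mice 2 to 5 and open diamonds are KPC mouse 1. Levels run from 0.554 TPM for Derl3 to 437 TPM for Calr, and the groups overlap for all members but Sdf2l1.

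The co-chaperones and small ER factors held the member with the largest difference upward. Sdf2l1 encodes a luminal partner of the BiP and ERdj3 cycle. It stood at 16.3, 22.3, 25.8, 25.1 and 23.3 TPM in sham mice 1 to 5 and at 56.4, 29.5, 26.3, 29.0 and 27.1 TPM in KPC mice 1 to 5. The groups did not overlap, but the lowest KPC value was next to the highest sham value, and KPC mouse 1 lay far above the rest. The log2 difference was 0.56 ± 0.21 (adjusted p = 0.299), and without KPC mouse 1 it was 0.34 (adjusted p = 0.217), with a KPC mean of 28.0 ± 1.54 TPM.

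Manf and Creld2, 2 secreted factors released on ER stress, were highest in the same mouse. Manf stood at 78.5, 102, 86.0, 99.6 and 79.4 TPM in sham mice 1 to 5 and at 160.0, 114, 88.9, 91.0 and 105 TPM in KPC mice 1 to 5. The other 4 KPC mice straddled the upper part of the sham range. Its log2 difference of 0.33 ± 0.17 (adjusted p = 0.420) was 0.18 without KPC mouse 1. Creld2 stood at 20.2 ± 3.83 TPM in the sham group and 23.4 ± 3.81 TPM in the KPC group, with 29.0 TPM in KPC mouse 1 as the highest value, and its difference of 0.25 was 0.15 without that mouse.

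The 3 J-domain proteins, which hand clients to BiP and stimulate its ATPase, differed in their pattern. Dnajb9 (ERdj4), a target of spliced XBP1 that represses IRE1, stood at 33.9, 34.7, 27.2, 26.6 and 26.3 TPM in sham mice 1 to 5 and at 35.0, 37.96, 39.8, 33.6 and 28.6 TPM in KPC mice 1 to 5. Here KPC mouse 3 was highest, and the difference of 0.27 ± 0.15 (adjusted p = 0.461) was 0.25 without KPC mouse 1. Dnajb11 (ERdj3) and Dnajc3 (p58IPK) differed by 0.04 ± 0.09 and 0.11 ± 0.08. Dnajc3 also restrains PERK, and its levels were 26.9 to 35.1 TPM in the sham group and 29.7 to 37.1 TPM in the KPC group.

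The 4 protein disulfide isomerases, which make and rearrange disulfide bonds, were all highest in KPC mouse 1 and otherwise overlapped. P4hb (PDI), also the beta subunit of collagen prolyl hydroxylase, stood at 192, 199, 203, 207 and 239 TPM in sham mice 1 to 5 and at 300.4, 205, 168, 214 and 189 TPM in KPC mice 1 to 5. Apart from mouse 1, KPC mice reached both below and into the sham range, and the difference turned from 0.06 to -0.09 without it. Pdia3 (ERp57), which works with calreticulin and calnexin on glycoproteins, stood at 188 ± 23.6 TPM in the sham group and 205 ± 33.6 TPM in the KPC group, or 191 ± 10.4 TPM without that mouse. Pdia4 (ERp72) stood at 65.0 ± 7.98 TPM in the sham group and 70.8 ± 8.03 TPM in the KPC group. Pdia6 (P5) differed by 0.05 with all mice and by -0.02 without KPC mouse 1. Adjusted p-values of these 4 genes ran from 0.552 to 0.894.

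Among the sensors, the transcripts of the 3 ER membrane proteins lay close together in the groups. Ern1 stood at 3.97, 5.65, 5.10, 5.92 and 5.77 TPM in sham mice 1 to 5 and at 4.13, 4.45, 6.49, 5.94 and 4.76 TPM in KPC mice 1 to 5, a difference of -0.01 ± 0.13. Atf6 stood at 11.1 ± 1.602 TPM in the sham group and 10.6 ± 2.05 TPM in the KPC group, and Eif2ak3 at 6.27 ± 1.04 TPM in the sham group and 5.69 ± 1.06 TPM in the KPC group. For Atf6 and Eif2ak3 the lowest value of all was that of KPC mouse 1.

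The transcription factors that the sensors work through were more abundant. Xbp1 stood at 178, 147, 155, 125 and 153 TPM in sham mice 1 to 5 and at 238, 178, 199, 161 and 169 TPM in KPC mice 1 to 5. Sham mouse 1 lay within the KPC range and the other 4 sham mice below it. Its difference of 0.35 ± 0.16 (adjusted p = 0.382) was 0.24 without KPC mouse 1 and 0.45 without sham mouse 1, where the adjusted p was 0.305. Atf4, the effector of the integrated stress response, stood at 67.5, 63.7, 51.0, 64.5 and 57.3 TPM in sham mice 1 to 5 and at 95.8, 54.9, 49.5, 69.5 and 64.3 TPM in KPC mice 1 to 5. KPC mouse 1 was the highest of all. The lowest was KPC mouse 3 in TPM and sham mouse 3 in normalized counts. The Atf4 difference of 0.14 ± 0.18 became -0.02 without KPC mouse 1. Gene-level values count spliced and unspliced Xbp1 together, and ATF4, ATF6 and PERK act through translation, cleavage and phosphorylation, which these tables do not measure.

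ER-associated degradation is the route by which misfolded protein is drawn out of the ER and given to the proteasome. Of its 7 members, 5 had differences below 0, Derl2 by only -0.01, where 53.1% of all tested genes did. Their median was -0.16, or -0.08 without KPC mouse 1. Edem1, a lectin-like mannosidase that marks glycoproteins for removal, stood at 26.3, 23.8, 29.6, 29.2 and 29.3 TPM in sham mice 1 to 5 and at 16.0, 23.1, 21.1, 27.0 and 23.5 TPM in KPC mice 1 to 5. In TPM all KPC mice but mouse 4 lay below all sham mice, and mouse 4 lay within the sham range. In normalized counts KPC mouse 2 also lay within the sham range. The log2 difference was -0.30 ± 0.11 (adjusted p = 0.298), and -0.21 without KPC mouse 1 (adjusted p = 0.299).

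The ubiquitin ligase Syvn1 (HRD1) and its adaptor Sel1l form the core of the degradation channel. Syvn1 stood at 30.3, 27.9, 29.2, 28.7 and 29.2 TPM in sham mice 1 to 5, and at 14.7, 23.0, 25.1, 28.2 and 28.8 TPM in KPC mice 1 to 5. In TPM, KPC mice 4 and 5 lay in the sham range, mice 2 and 3 below it, and mouse 1 far below it. In normalized counts KPC mouse 4 also lay below all sham mice. The Syvn1 difference of -0.28 ± 0.15 (adjusted p = 0.432) was -0.13 without KPC mouse 1. Sel1l stood at 26.6 to 32.1 TPM in sham mice and at 16.4, 25.2, 24.5, 34.0 and 32.1 TPM in KPC mice 1 to 5, and its difference of -0.19 was -0.05 without that mouse.

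The Derlins, which form part of the same channel, and Herpud1, a scaffold of it, varied in other ways. Derl1 stood at 137 ± 11.7 TPM in the sham group and 121 ± 14.2 TPM in the KPC group, with its lowest value, 96.2 TPM, in KPC mouse 1. Derl2 differed by -0.01 ± 0.12. Derl3, known from plasma cells and other dedicated secretory cells, was the lowest member at 0.554 to 1.54 TPM in the sham group and 0.678 to 1.12 TPM in the KPC group. Herpud1 stood at 32.3, 34.0, 38.2, 28.7 and 38.5 TPM in sham mice 1 to 5 and at 34.0, 29.9, 25.5, 56.3 and 47.6 TPM in KPC mice 1 to 5. It split the KPC mice, with mice 4 and 5 above all sham mice and mouse 3 below them all, and its difference was 0.15 ± 0.18 (adjusted p = 0.736).

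Herpud1 and Chac1 are shown with a further pair of control sequences, since Herpud1 holds a site for each arm. ERSE-II, searched as ATTGG and CCACG with 1 base of any kind between them on both strands, was found for Herpud1 and Dnajb11 among the members and for 0.0444% of all genes; the Dnajb11 copy lies past the gene start. The C/EBP-ATF response element (CARE), which ATF4 binds as a dimer with C/EBP proteins, was searched as TGATGNAA on both strands. It was found for Asns, Chac1, Herpud1 and Trib3, 14.3% of the members against 4.51% of all genes. The Trib3 site lies past the RefSeq gene start, and an annotated exon overlaps the stretch around the Asns site. The XBP1 site TGACGTGG, searched likewise, was found for 0 members and 0.714% of all genes. In the stretches below capitals mark the site, at chr8:94386362-94386402 and chr8:94386302-94386339 for Herpud1 and chr2:119351034-119351071 for Chac1, all on the plus strand, and the 2 sites of Herpud1 do not overlap.
Herpud1, ERSE-II: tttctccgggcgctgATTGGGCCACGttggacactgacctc
Herpud1, CARE in reverse: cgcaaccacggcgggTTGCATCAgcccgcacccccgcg
Chac1, CARE in reverse: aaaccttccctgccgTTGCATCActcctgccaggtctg

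The outputs of the integrated stress response had differences in both directions, 1 above 0 and 4 below. Trib3, a pseudokinase that ATF4 induces and that binds AKT, had the largest difference downward. It stood at 3.55, 6.47, 5.68, 4.89 and 8.13 TPM in sham mice 1 to 5 and at 3.69, 4.47, 2.72, 3.42 and 4.41 TPM in KPC mice 1 to 5. In TPM sham mouse 1 lay in the KPC range and the other 4 sham mice lay above all KPC mice. In normalized counts sham mouse 4 also lay in the KPC range, next to KPC mouse 2. The log2 difference was -0.55 ± 0.21 (adjusted p = 0.305), and leaving out KPC mouse 1 gave -0.57.

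Ppp1r15a (GADD34), which brings a phosphatase to eIF2 alpha and ends the response, leaned the other way. It stood at 7.05, 10.5, 7.17, 7.27 and 9.84 TPM in sham mice 1 to 5 and at 12.2, 10.9, 6.53, 11.0 and 10.3 TPM in KPC mice 1 to 5. The lowest of all 10 was KPC mouse 3 in TPM and sham mouse 3 in normalized counts. The Ppp1r15a difference was 0.31 ± 0.18 (adjusted p = 0.481). Asns, asparagine synthetase, the standard reporter of amino acid shortage, stood at 48.6 ± 5.53 TPM in the sham group and 44.4 ± 7.25 TPM in the KPC group. Chac1, which breaks down glutathione, stood at 4.66 to 6.89 TPM in sham mice and at 9.03 TPM in KPC mouse 1, with the other KPC mice at 4.04 to 5.69 TPM. Without that mouse its difference was -0.22 in place of -0.03. Sesn2, an inhibitor of mTORC1 signalling, varied widely within both groups, at 6.41 to 18.6 TPM in the sham group and 6.77 to 14.7 TPM in the KPC group.

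Across mice, the members varied most in KPC mouse 1. In normalized counts it had the highest value of 10 mice for 16 members and the lowest for 8, and no other mouse was highest for more than 4 or lowest for more than 5. The highest values were those of the 4 disulfide isomerases, 4 of the 6 co-chaperones and secreted factors, 3 of the 5 chaperones, 2 transcription factors (Xbp1 and Atf4), 1 degradation gene (Derl2) and 2 outputs (Ppp1r15a and Chac1). The lowest included 4 of the 7 degradation genes and the 3 sensors. In sum, the 32 members took 0.310% of listed TPM in KPC mouse 1, against 0.234% to 0.268% in the other 9 mice. As a share of TPM outside the mitochondrially encoded genes they took 0.368% in KPC mouse 1, inside the 0.349% to 0.389% of the other 9. KPC mouse 2 shared part of the pattern, with a median deviation from the sham mean of 0.44 for co-chaperones and secreted factors, where KPC mouse 1 had 0.50 and KPC mice 3 to 5 had 0.19, 0.03 and 0.02.

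**Figure D3:**
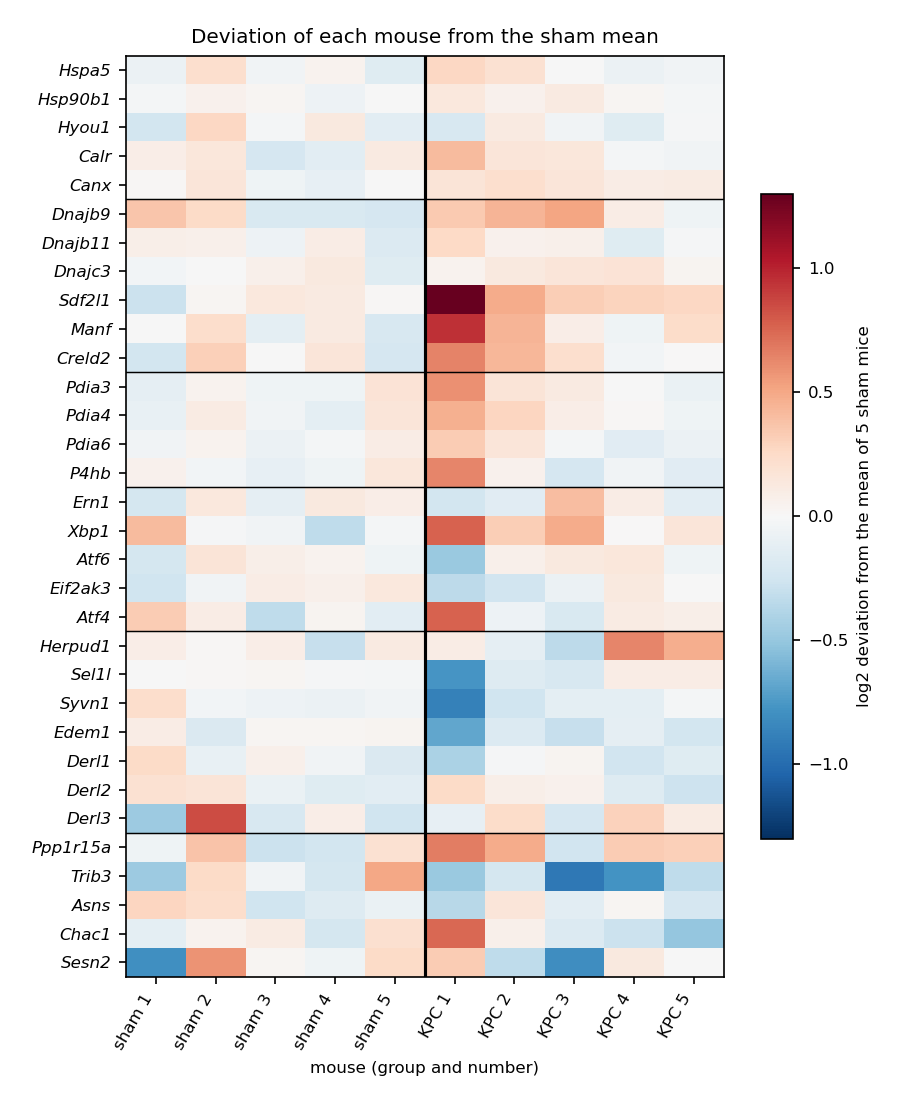
Deviation of each mouse (columns) from the mean of the 5 sham mice for each member (rows, grouped by role), on the log2(normalized count + 1) scale; red is above and blue below the sham mean. KPC mouse 1 is red for most folding genes and blue for Sel1l, Syvn1 and Edem1.

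The deviation of KPC mouse 1 went with transcript length. Over the 32 members, the rank correlation between the length of the longest coding transcript and the log2 deviation of this mouse from the mean of the other 9 was -0.571, and over the 10975 tested genes with a length and a mean normalized count of at least 100 it was -0.366. Members share a library here, so these are descriptions. With these genes split by length into 4 bins of like size, members above the other mice numbered 5 of 8 in the shortest bin (204 to 2045 bases), 11 of 12 in the next (2046 to 3224), 4 of 7 in the third (3225 to 4761) and 0 of 5 in the longest (4763 or more). From the shortest bin to the longest, the median deviation of all these genes was 0.27, 0.03, -0.10 and -0.31. That of the members was 0.30, 0.405, 0.10 and -0.51. Sdf2l1 (1108 bases) deviated by 1.29 and Sel1l (6300 bases) by -0.75, while Asns (2016 bases), Trib3 (2026 bases) and Derl3 (1321 bases) were short and lay below 0 at -0.34, -0.23 and -0.15. Other mice also went with length: over all these genes the rank correlation was -0.230 in KPC mouse 2 and ran from -0.131 to 0.382 in the remaining 8 mice. Over the members it was -0.390 in KPC mouse 2 and ran from 0.0403 to 0.539 in those 8, the highest in sham mouse 4. Between the groups, the rank correlation of length with the difference was -0.458 over the members, and -0.271 without KPC mouse 1. The part of transcript length or RNA quality in the differences above was not tested.

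**Figure D4:**
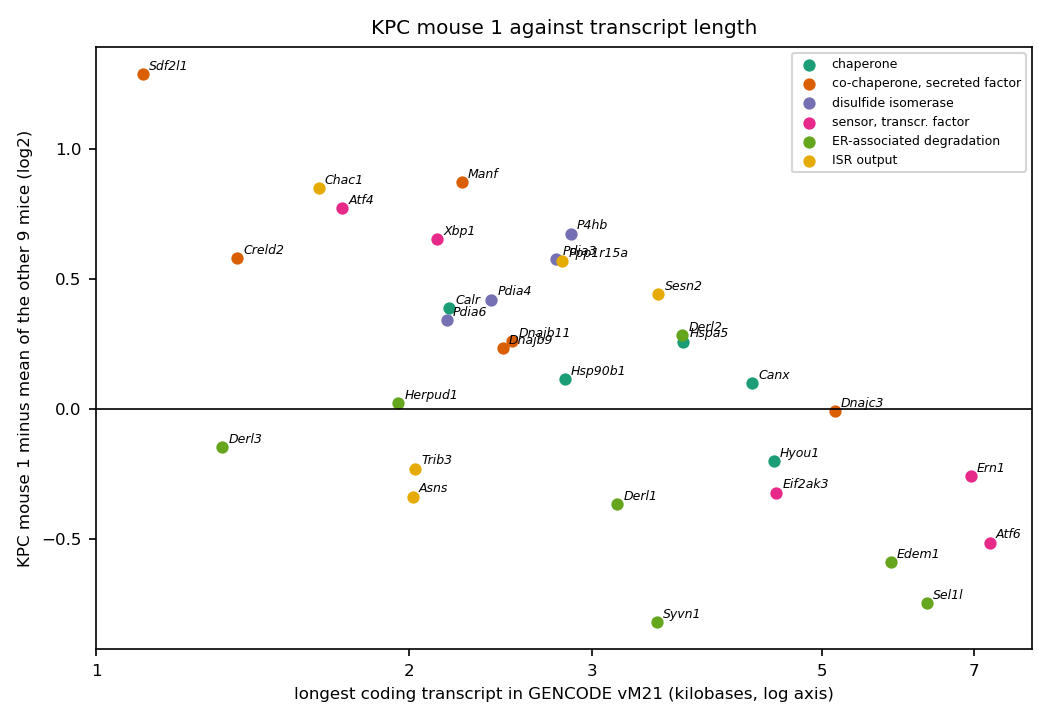
Log2 deviation of KPC mouse 1 from the mean of the other 9 mice (y axis) against the length of the longest coding transcript in kilobases on a log axis (x axis), 1 point per member, coloured by role. Sdf2l1 lies highest (1.29) and all members of 4763 bases or more lie below 0, as do the shorter Syvn1, Derl1, Asns, Trib3, Derl3, Hyou1 and Eif2ak3.

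Of the 13 lists of other genes around these pathways, 0 genes were called by limma at an adjusted p under 0.05. The share called over all tested genes was only 0.0563%. The largest difference in these lists, that of Atf3, was in the list of transcription factors and outputs linked to ATF4. Atf3, a factor that both ATF4 and acute stimuli induce, stood at 7.21, 5.86, 6.88, 6.00 and 4.61 TPM in sham mice 1 to 5 and at 26.1, 10.7, 20.4, 20.3 and 8.99 TPM in KPC mice 1 to 5. Every KPC value exceeded every sham value, with a difference of 1.43 ± 0.29 (adjusted p = 0.0956). Ddit4 (REDD1), an inhibitor of mTORC1 that glucocorticoids also induce, stood at 23.7 to 44.3 TPM in sham mice and at 54.6, 43.1, 46.6, 122 and 119 TPM in KPC mice 1 to 5, a difference of 1.015 ± 0.29 (adjusted p = 0.205). Bbc3 (PUMA), which promotes apoptosis, lay lower, at 13.1 ± 2.25 TPM in the sham group and 7.82 ± 2.50 TPM in the KPC group. The list as a whole had a median of -0.01, or -0.02 without KPC mouse 1, over 14 tested genes, with 4 higher and 3 lower at an unadjusted p under 0.05, where 7.61% and 5.91% of all tested genes were. Atf3 also stands in the list of immediate early genes, which had 12 of 14 differences above 0, against 46.9% of all tested genes.

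Genes that load and supply amino acids lay mostly below 0. Of 20 aminoacyl-tRNA synthetases, which charge tRNAs and of which several are ATF4 targets, 18 had a difference below 0, against 53.1% of all tested genes, and 6 had an unadjusted p under 0.05, all lower, where 5.91% of all tested genes did. Aars, the alanyl-tRNA synthetase, stood at 34.7, 34.4, 29.2, 35.4 and 31.9 TPM in sham mice 1 to 5 and at 22.8, 24.9, 22.2, 26.7 and 20.7 TPM in KPC mice 1 to 5. The groups did not overlap, and the difference was -0.47 ± 0.11 (adjusted p = 0.119). Eprs and Sars, the enzymes for glutamate with proline and for serine, differed by -0.32 ± 0.12 and -0.19 ± 0.07. Among amino acid synthesis and transport genes, 12 of 17 lay below 0 with a median of -0.24, or -0.10 without KPC mouse 1 and -0.05 without sham mouse 1. Slc1a4, a transporter of small neutral amino acids, differed by -0.57 ± 0.24. Slc3a2, the heavy chain of several transporters, differed by 0.24 ± 0.11.

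Other steps of the secretory route had medians near 0. Translocon and signal peptide genes had a median of 0.03 over 25 genes, other oxidation and proline isomerase genes -0.03 over 17, glycan checks -0.02 over 13, and other degradation genes -0.05 over 19. Without KPC mouse 1 these medians lay between -0.04 and 0.02. Of the 25 translocon and signal peptide genes 18 lay above 0 and 7 below, where 46.9% of all tested genes lay above 0. Vesicle export from the ER had a median of -0.08, with 15 of 20 genes below 0, where 53.1% of all tested genes were. In that list Sec23a, a coat subunit of these vesicles, stood at 20.8 ± 1.63 TPM in the sham group and 16.4 ± 2.01 TPM in the KPC group with no overlap, a difference of -0.32 ± 0.08 (adjusted p = 0.174). Ganab, the glucosidase that trims glycans for calnexin, differed by -0.51 ± 0.17 (adjusted p = 0.277). Sec11c, a signal peptidase subunit, reached 85.2 TPM in KPC mouse 1, where sham mice had 35.7 to 40.7 TPM.

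Genes of translation control were also close to 0. Kinases, exchange factors and phosphatase partners of eIF2 had a median of -0.01, or -0.04 without KPC mouse 1, and all 17 intervals lay within 1.5-fold. Eif2b3, a subunit of the exchange factor, stood at 23.0 ± 2.24 TPM in the sham group and 18.02 ± 1.64 TPM in the KPC group with no overlap (adjusted p = 0.191). ATF6 processing and related factors had a median of -0.13 over 10 genes, or -0.06 without KPC mouse 1. Of these genes 7 lay below 0, where 53.1% of all tested genes did.

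Folding genes outside the ER were counted for comparison. Cytosolic heat shock genes had a median of 0.04 over 18 genes, or 0.06 without KPC mouse 1. Of these 18 genes 13 lay above 0 and 5 below, where 46.9% of all tested genes lay above 0. In that list Cryab, a small heat shock protein rich in muscle, stood at 90.2 ± 19.0 TPM in the sham group and 44.9 ± 13.8 TPM in the KPC group, a difference of -0.996 ± 0.20 (adjusted p = 0.0885), and Hspb1 (Hsp25) differed by 0.44 ± 0.17. Mitochondrial folding and protease genes had 10 of 12 differences below 0, where 53.1% of all tested genes did. Their median was -0.12, or -0.08 without KPC mouse 1. Lonp1, the matrix protease, stood at 66.2 ± 4.15 TPM in the sham group and 53.9 ± 10.6 TPM in the KPC group. Genes of ER shape and ER turnover by autophagy had a median of -0.13.

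**Figure D5:**
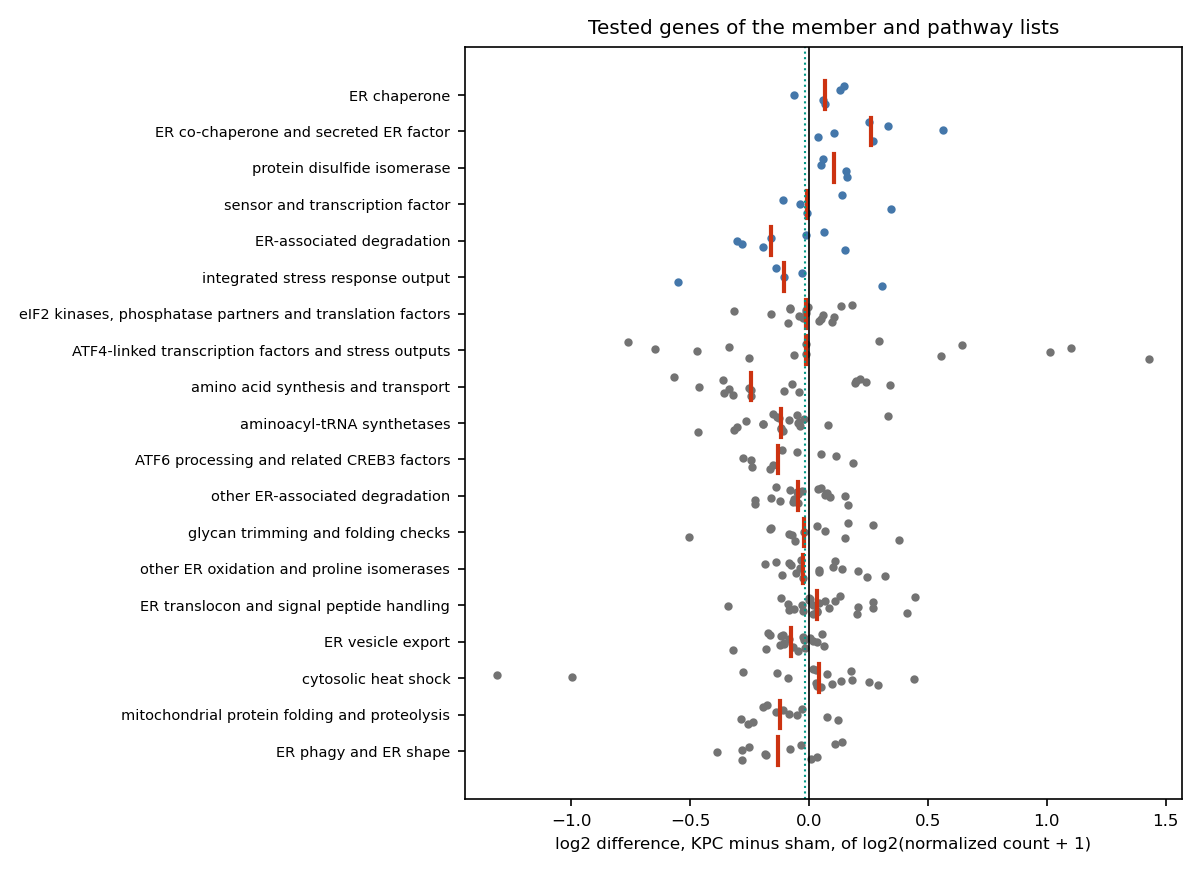
Log2 difference, KPC minus sham, of each tested gene of the 6 member groups (blue) and 13 pathway lists (grey); red bars are list medians and the dotted line is the median of all tested genes, -0.02. Medians run from -0.24 for amino acid synthesis and transport to 0.26 for co-chaperones and secreted factors, the latter 0.17 without KPC mouse 1.

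The tissue was checked against markers of fat and of cells with a large ER. Adipoq, the adiponectin gene, stood at 3874 to 5245 TPM in the sham group and 3322 to 4899 TPM in the KPC group. Plasma and B cell genes, 15 of 15 of them listed, summed to 531 to 1075 TPM in the sham group and 441 to 1405 TPM in the KPC group, and 0 of the 14 tested had an unadjusted p under 0.05. Of 15 pancreatic acinar genes, 5 were at 0 in all mice. Prss2, Cpa1, Pnlip and Ctrb1, which define those cells, stood at no more than 0.124 TPM in any mouse, while Cela1 stood at 11.5 to 32.2 TPM.

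Of 12 macrophage genes 0 were called, where 0.0563% of all tested genes were. Of the 12, 11 had an unadjusted limma p under 0.05, all higher, where 7.61% of all tested genes did. They summed to 927 to 1503 TPM in the sham group and 1571 to 6245 TPM in the KPC group, the last in KPC mouse 1, with none of the 12 at 0 and all 12 differences above 0. Neutrophil genes summed to 15.6 to 62.2 TPM in the sham group and 25.7 to 291 TPM in the KPC group, again highest in mouse 1. Skeletal muscle genes, all 12 of them below 0, summed to 62.7 to 5431 TPM in the sham group and 53.5 to 292 TPM in the KPC group. Summed adipocyte genes were lowest in KPC mouse 1 at 46921 TPM, where sham mice had 56278 TPM or more. Red cell genes, 8 of 8 above 0 with a median of 0.98, summed to 4751 to 12883 TPM in sham mice and 8558 to 40759 TPM in KPC mice. The KPC median sum was 11235 TPM, inside the sham range, and the highest sum was that of KPC mouse 1. The part of these cell type shifts in the values of Sdf2l1, Manf, Xbp1, Edem1, Syvn1 and Trib3 was not tested.

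On GRCm38 with the GENCODE vM21 annotation, matched by Ensembl identifier, all 32 members are protein-coding. Positions are given for Sdf2l1 (ENSMUSG00000022769, chromosome 16, 17130138 to 17132383, minus strand), Trib3 (ENSMUSG00000032715, chromosome 2, 152337422 to 152344032, minus strand), Xbp1 (ENSMUSG00000020484, chromosome 11, 5520659 to 5525893, plus strand), Manf (ENSMUSG00000032575, chromosome 9, 106838312 to 106891979, minus strand) and Edem1 (ENSMUSG00000030104, chromosome 6, 108828641 to 108859356, plus strand). Hspa5 (ENSMUSG00000026864) lies on the plus strand of chromosome 2 from 34771970 to 34777547. Exons of another gene overlap those of 10 members, on the other strand for 9 of them, Manf and Syvn1 included. The strand setting was not used here, and how reads within the shared stretches were divided between such genes was not examined.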

How the data were processed

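RNA-seq of visceral adipose tissue from 10 mice was analysed, 5 per group. The authors deposited normalized counts, treated below as a non-negative signal, and TPM. Salmon, DESeq2, DESeq and build mm10 are named, per the submitters' processing notes; versions, annotation and strandedness: not given in the sources used here. The deposited values are not whole reads: for the best step per mouse, 31.1% to 47.3% of values up to 30 came within 0.05 of a whole number, so no count model was run. Columns were matched to mice by title.

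The 14203 genes whose normalized counts averaged at least 10 were fitted on log2(normalized count + 1) by limma 3.58.1 with its trend option (R 4.3.3), with Benjamini-Hochberg adjustment over all of them and a threshold of 0.05. Labels give separate samples and do not state separate animals in so many words. Each sample was taken as a separate mouse throughout, and p-values measure the spread between these samples. The fit was first run on made-up data with known changes. The members and lists were chosen with earlier results of these data known. Named were all members and, of each pathway list, up to 3 genes with the smallest unadjusted p; single cell type markers were named where they define a cell. Genes of those lists under other symbols were not analysed here. Alternatives changed the pseudocount, the filter, the scale, the weights, a block and each mouse. Intervals are 95% limma intervals.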

Additional observations from a re-analysis of the deposited data

Results flagged for a closer look

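In 4 of 64 groups examined (32 members in 2 groups of 5 mice), 1 mouse stood apart from the others by Dixon's ratio, with a critical value of 0.71; chance flags about 1 group in 20. All 4 were KPC mouse 1. It was highest for Sdf2l1, at 56.4 TPM where the next KPC mouse had 29.5 TPM, for Pdia3, at 263 TPM with the next at 199 TPM, and for Dnajb11, at 41.5 TPM with the next at 37.1 TPM. It was lowest for Derl1, at 96.2 TPM with the next at 123 TPM. The same library had the lowest mitochondrial share, and the part of that in these values was not tested.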

How the results depend on the processing

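Over the 20 alternatives 0 members were called in either direction, with a smallest adjusted p of 0.176, and 20 of the 32 members kept the sign of their difference. The count of members with an unadjusted p under 0.05 was 3, against 5 with quantile normalization, 7 with the first number of the titles as a block and 2 to 6 leaving out 1 mouse; the count with no overlap was 1, and 1 to 3 leaving out 1 mouse. The members' median difference of 0.06 was -0.0030 with array weights, 0.020 on TPM and 0.03 to 0.08 leaving out 1 mouse. With array weights the median of co-chaperones and secreted factors was 0.12 and that of amino acid genes -0.08, and the latter was -0.13 with the title block. Calls over all genes, 7 higher and 1 lower, were 2 and 0 on TPM with a pseudocount of 1, 4 higher with 0.1, 172 and 28 with array weights, 3 higher with the replicate block and 3 higher with the title block, and 1 to 66 higher and 1 to 4 lower leaving out 1 mouse, with 66 and 4 without KPC mouse 1 and 13 higher without KPC mouse 2; the cause was not tested.

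Signs turned under at least 1 alternative for 12 members, among them Atf4 and Sesn2, whose differences were 0.14 and -0.14. With array weights the differences were -0.0213 for Hspa5, -0.0328 for Dnajb11, -0.0133 for Pdia6, -0.0306 for P4hb, 0.00892 for Ern1, 0.00113 for Atf6 and -0.00721 for Derl3. With the title block Ern1 was at 0.0182 and Derl2 at 0.0154, and on TPM with a pseudocount of 1 Derl3 was at -0.00683. Leaving out 1 mouse gave -0.018 to 0.223 for Atf4, -0.0959 to 0.0711 for Atf6, -0.223 to 0.0902 for Chac1, -0.0762 to 0.0531 for Derl2, -0.0535 to 0.276 for Derl3, -0.0156 to 0.0879 for Dnajb11, -0.109 to 0.0502 for Ern1, -0.121 to 0.00708 for Hyou1, -0.0877 to 0.126 for P4hb, -0.0218 to 0.0979 for Pdia6 and -0.339 to 0.0278 for Sesn2.

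The labels do not say whether the replicate numbers pair the mice, and the correlations do not settle it. Deviations of same-numbered mice correlated at 0.0051 to 0.191, and those of the other pairs at -0.239 to 0.159. With the replicate block 4 members had an unadjusted limma p under 0.05 and 0 were called. Derl3 was not tested with a minimum mean of 50. Derl3, the member with the lowest level, had the widest interval.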
